A study of Mus musculus with 14 samples.

Results

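Toll-like receptors (TLRs) are the germline-encoded sensors through which innate immune cells detect microbial products and, in lupus, nucleic acids released from dying cells. The transcripts of 10 of them, Tlr1, Tlr2, Tlr3, Tlr4, Tlr5, Tlr6, Tlr7, Tlr8, Tlr9 and Tlr13, were followed in the hippocampus of lupus-prone and control mice. They were chosen by name, as the rows of the deposited gene counts whose Ensembl identifier carries one of these symbols in GENCODE M21, and make up 10 of the 55536 Ensembl genes of the table. All 10 were among the 38070 genes tested, which are those with at least 10 counts summed over the libraries.

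Bulk RNA-seq was deposited for 14 hippocampi of mice aged 10 months, perfused with cold PBS before dissection, and the study describes all 4 groups as being on the C57BL/6 background. MRL mice (4 libraries) are B6.MRL-Faslpr/J, which carry the lpr mutation of the death receptor gene Fas and develop a lupus-like disease. MRL-IRAK4-KD mice (4 libraries) carry the same mutation and in addition an IRAK4 without kinase activity (kinase-dead, KD). IRAK4-KD mice (3 libraries) are labelled as carrying the kinase-dead IRAK4 without lpr, and C57BL/6 mice (3 libraries, C57BL6/J in the labels) carry neither. Both mutations are present in all cells of the body, so that the groups do not separate a role of TLR signalling in the brain from one in the periphery. Levels are given in CPM, counts scaled to the same library total after TMM normalization, and each value stands for one library.

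Each TLR recognizes its own class of ligand. TLR2, paired with TLR1 or TLR6, binds bacterial lipopeptides, TLR4 with its partner MD-2 binds lipopolysaccharide, and TLR5 binds flagellin, all at the cell surface, whereas TLR3, TLR7, TLR8, TLR9 and TLR13 sense nucleic acids in endosomes. All of them except TLR3 signal through the adaptor MyD88, which assembles IRAK4 and further kinases into the Myddosome. TLR3 uses the adaptor TRIF instead, and TLR4 uses both. In the brain, microglia and the macrophages of its borders are known for carrying most of these receptors.

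Before the members are described, 2 libraries that stand apart have to be named. The library labelled IRAK4-KD replicate 3 had 0 counts of the transcript Fas-201 and 514 counts of Fas-204, as the lpr groups did (0 counts of Fas-201), whereas Fas-201 held 97.8% to 98.8% of the Fas counts in the other IRAK4-KD and the C57BL/6 libraries. MRL-IRAK4-KD replicate 4 lay at a score of 257 on the first principal component (23.5% of the variance), against scores of -40.9 to 7.35 for the other 13 libraries, and its choroid plexus markers summed to 7776 CPM, against at most 1831 CPM elsewhere. Of these 7776 CPM, the single marker Ttr made up 7631 CPM. Total counts ranged from 279941472 to 572398312. These totals exceed the number of reads per sample that the study's methods state, and the sources used here do not explain the gap. A count therefore cannot be taken as a single read. Markers of the hippocampal fields summed to 700 to 1201 CPM in MRL and 1008 to 2110 CPM in MRL-IRAK4-KD libraries, the highest in MRL-IRAK4-KD replicate 4. Their sums were 839 to 1080 CPM in C57BL/6 and 1138 to 1449 CPM in IRAK4-KD libraries. Of the 2110 CPM in MRL-IRAK4-KD replicate 4, the single marker Zbtb20 made up 1509 CPM. Markers of the striatum and thalamus summed to 321 CPM in IRAK4-KD replicate 3 and 235 CPM in MRL-IRAK4-KD replicate 4. Elsewhere they reached at most 146 CPM. None of the 15 microglial markers, such as Cx3cr1, P2ry12 and Tmem119, was at 0 in any group. In bulk RNA, fewer cells of a type and less RNA per cell cannot be told apart, and this holds for every TLR value that follows.

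Tlr1 (ENSMUSG00000044827.10, chr5:64924679-64933563, minus strand) and Tlr6 (ENSMUSG00000051498.6, chr5:64952031-64960097, minus strand) are neighbours on chromosome 5 (all coordinates are in mm10) and the members that resemble each other most. Their counts are uncertain to the extent of shared sequence, since 259 of the 3282 windows of 100 bases in the Tlr1 transcripts (7.89%) also occur in Tlr6. The longest stretch that their coding sequences share is 229 bases long, lies within 1 exon in each gene (chr5:64925537-64925765 in Tlr1, chr5:64953828-64954056 in Tlr6, both on the minus strand), and is shown because reads that fall within it fit both genes.
Tlr1 and Tlr6 shared coding run: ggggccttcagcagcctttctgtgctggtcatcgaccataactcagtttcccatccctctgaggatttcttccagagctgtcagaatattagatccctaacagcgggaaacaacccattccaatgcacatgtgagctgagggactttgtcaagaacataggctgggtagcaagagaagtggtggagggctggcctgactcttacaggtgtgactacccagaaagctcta
Over all other pairs of members the longest shared coding run was at most 16 bases. For Tlr3, 188 of 5666 windows (3.32%) also occur in the antisense gene Gm45542, which had 28 counts in total and cannot be told apart from Tlr3 there without strand, and the remaining 7 members shared 0 windows with another gene.

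The sequences in front of the genes were searched for 4 motifs of innate immune transcription factors. Promoters of 250 bases before to 50 bases after a start were taken from RefSeq (GRCm38.p6), which held 10 promoters of 8 members (Tlr4 and Tlr7 had none in the table). The interferon-stimulated response element (GAAA and GAAA with 2 bases of any kind between them) was in 1 of the 10 promoters, of Tlr6 (3.44% of all 32851 promoters). The STAT motif TTCNNNGAA was in 3 of the 10, of Tlr1, Tlr6 and Tlr8 (8.30%). The PU.1 motif GAGGAAGT, of the lineage factor of macrophages and microglia, was in 2 of the 10, of Tlr1 and Tlr9 (3.20%). The NF-kappa-B motif (GGG and TTTCC with 2 bases of any kind between them) was in 1 of the 10, of Tlr3 (1.63%). Both strands were searched, and a match describes the letters only. The 3 windows upstream of a start that hold a match and at most 5 exonic bases are printed 5′ to 3′ on the minus strand, with the matching bases in capitals. In Tlr6 (chr5:64959167-64959416) they mark 2 overlapping response elements read on the opposite strand, in a window that lies within the annotated gene but holds 0 exonic bases, in Tlr1 (chr5:64933559-64933808) the PU.1 motif, and in Tlr8 (chrX:167264330-167264579) the STAT motif.
Tlr6: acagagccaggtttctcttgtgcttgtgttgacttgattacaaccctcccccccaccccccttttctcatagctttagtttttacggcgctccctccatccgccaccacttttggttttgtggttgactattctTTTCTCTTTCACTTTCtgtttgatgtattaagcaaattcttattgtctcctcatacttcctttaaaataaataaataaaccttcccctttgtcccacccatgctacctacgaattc
Tlr1: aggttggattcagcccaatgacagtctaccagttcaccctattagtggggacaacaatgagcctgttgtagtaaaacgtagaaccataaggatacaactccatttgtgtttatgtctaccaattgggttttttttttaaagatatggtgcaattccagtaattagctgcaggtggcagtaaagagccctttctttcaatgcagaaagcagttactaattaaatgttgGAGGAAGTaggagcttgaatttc
Tlr8: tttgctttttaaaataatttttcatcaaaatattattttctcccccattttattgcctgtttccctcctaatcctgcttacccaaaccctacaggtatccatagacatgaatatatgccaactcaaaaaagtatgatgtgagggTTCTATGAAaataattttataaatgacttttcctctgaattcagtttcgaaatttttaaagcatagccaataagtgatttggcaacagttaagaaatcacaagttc

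Compared per kilobase of exon, which allows levels to be set between genes, Tlr3 was by far the most abundant TLR transcript of the hippocampus, with a mean of 2.76 CPM per kb over the 14 libraries (range 1.31 to 3.82). Tlr7 followed with 0.718 CPM per kb (0.491 to 1.09), then Tlr13 with 0.474 and Tlr2 with 0.403 CPM per kb. Tlr3 was above Tlr7 and Tlr7 above Tlr13 in all 14 libraries, while Tlr13 was above Tlr2 in 12 of them. The middle of the order was not resolved: Tlr9 (0.266 CPM per kb) was above Tlr4 (0.228) in 8 of 14 libraries, and Tlr4 was above Tlr1 (0.226) in 8 of 14. Tlr6 (0.181), Tlr5 (0.0688) and Tlr8 (0.0208 CPM per kb) formed the lower end, with Tlr6 above Tlr5 and Tlr5 above Tlr8 in all 14 libraries. The mean per kilobase of Tlr3 was 132 times that of Tlr8 and 3.85 times that of Tlr7.

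**Figure D1:**
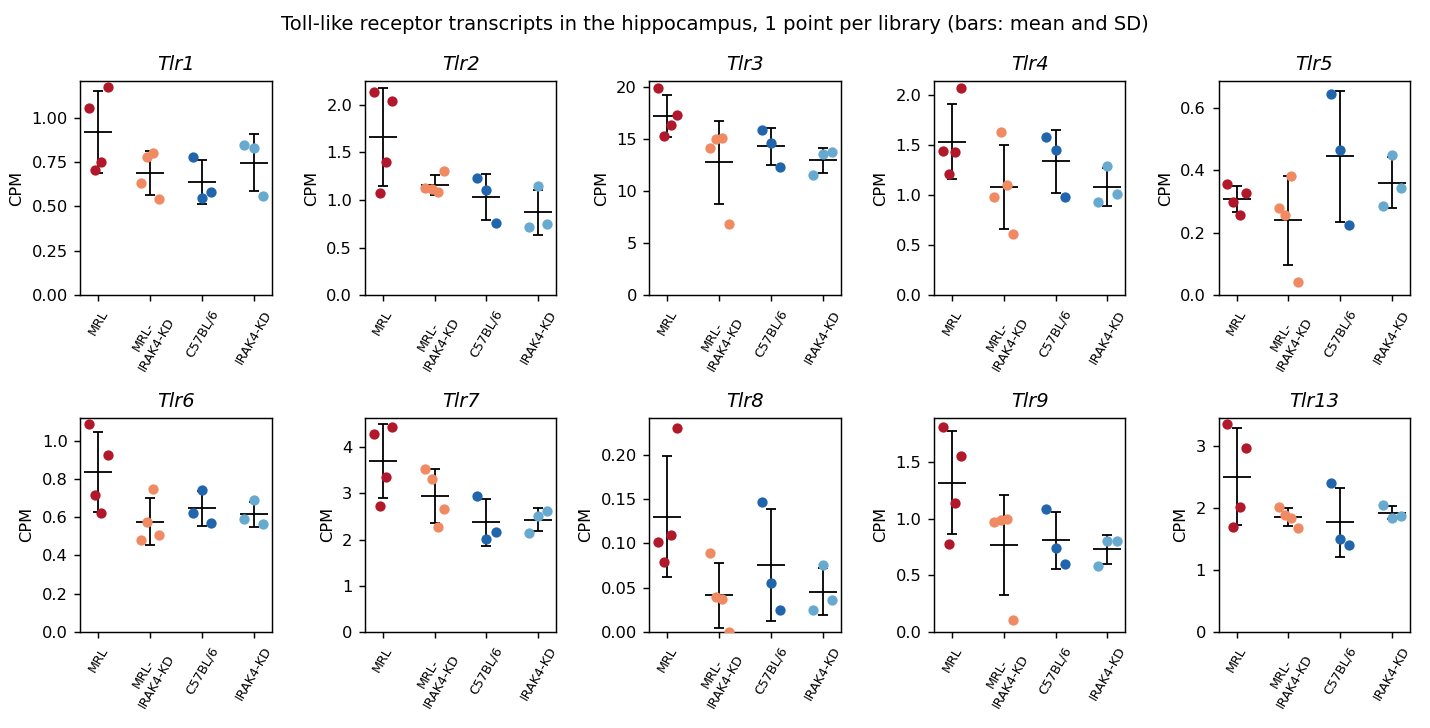
Level of each TLR gene in CPM (y axis, each panel on its own scale starting at 0) in the 4 groups (x axis). Each point is 1 library and bars give the mean and SD. For 9 of the 10 genes the highest point is an MRL library, and for 6 of the 10 the lowest point is MRL-IRAK4-KD replicate 4.

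Whether an active IRAK4 kinase alters TLR expression in lupus-prone mice was asked by comparing MRL with MRL-IRAK4-KD libraries. The mean was higher in MRL libraries for all 10 members, with log2 fold changes between 0.33 and 1.63 and a median of 0.47, where the median of all 38070 genes was 0.0023 and 50.2% were above 0. No member passed an adjusted p below 0.05 with edgeR, DESeq2 or limma-voom (0 of 10 with each), a threshold that 0.0972% of all genes passed with edgeR. At an unadjusted p below 0.05, edgeR called 1 of 10 members, Tlr6, against 11.4% of all genes in either direction and 5.14% higher in MRL. DESeq2 called 4 (Tlr2, Tlr3, Tlr6 and Tlr8), against 11.7% of all genes, and limma-voom called 2 (Tlr2 and Tlr8, and not Tlr6), against 15.4%. What the members had in common was the sign of the difference and not a difference that passed the test, and the members varied together across libraries, so that the 10 signs are not 10 separate observations.

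Among the receptors of the endosome, Tlr3 (ENSMUSG00000031639.12, chr8:45395665-45411080, minus strand) is the sensor of double-stranded RNA. In MRL replicates 1 to 4, Tlr3 stood at 19.9, 15.2, 16.3 and 17.3 CPM, and in MRL-IRAK4-KD replicates 1 to 4 at 14.1, 15.0, 15.1 and 6.80 CPM. In C57BL/6 libraries it stood at 15.8, 14.6 and 12.3 CPM and in IRAK4-KD libraries at 11.5, 13.6 and 13.7 CPM. Every MRL library was above every MRL-IRAK4-KD library, but C57BL/6 replicate 1 lay above the lowest MRL library, and MRL-IRAK4-KD replicate 4 was far below all others. Tlr3 was the only member whose MRL and MRL-IRAK4-KD groups did not overlap. With every MRL library above every MRL-IRAK4-KD library it was 1 of 10 members, against 3.13% of all 38070 genes. The mean was 17.2 ± 1.99 CPM (SD, n = 4) for MRL against 12.7 ± 3.99 CPM (SD, n = 4) for MRL-IRAK4-KD, which corresponds to a log2 fold change of 0.43 (standard error, SE, 0.20, with an adjusted p of 0.440 in edgeR's quasi-likelihood test with Benjamini-Hochberg adjustment). The 2-sided exact permutation test on log2(CPM + 0.1) gave p = 0.0286, the smallest that 4 against 4 libraries allow, and is 1 of 10 such tests, 1 for each member. Without both libraries that stand apart, the log2 fold change of Tlr3 was 0.22 (SE 0.11, adjusted p by edgeR = 0.590).

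Tlr7 (ENSMUSG00000044583.13, chrX:167304929-167330558, minus strand), which senses single-stranded RNA and is the TLR most tied to lupus, was the second most abundant member. Tlr7 stood at 4.29, 2.73, 3.36 and 4.43 CPM in MRL replicates 1 to 4, and in MRL-IRAK4-KD replicates 1 to 4 at 3.54, 3.31, 2.27 and 2.66 CPM. The C57BL/6 libraries had 2.95, 2.00 and 2.17 CPM and the IRAK4-KD libraries 2.15, 2.52 and 2.63 CPM of Tlr7. MRL replicates 1 and 4 were the highest of all 14 libraries, and MRL replicates 2 and 3 lay inside the range of the MRL-IRAK4-KD libraries. All libraries labelled C57BL/6 or IRAK4-KD were at or below 2.95 CPM. For MRL and MRL-IRAK4-KD the means were 3.70 ± 0.806 CPM (SD, n = 4) and 2.95 ± 0.583 CPM (n = 4), a log2 fold change of 0.33 (SE 0.20, adjusted p by edgeR = 0.489, exact permutation p = 0.171).

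Tlr9 (ENSMUSG00000045322.10, chr9:106222598-106226883, plus strand) is the sensor of unmethylated CpG DNA. In MRL replicates 1 to 4, Tlr9 stood at 1.80, 0.774, 1.13 and 1.55 CPM, and in MRL-IRAK4-KD replicates 1 to 4 at 0.970, 0.991, 0.997 and 0.106 CPM. Values of Tlr9 in C57BL/6 libraries were 1.08, 0.741 and 0.600 CPM, and those in IRAK4-KD libraries were 0.580, 0.803 and 0.804 CPM. The last MRL-IRAK4-KD value rested on 33 counts, against 213 to 839 counts in the other libraries, and MRL replicates 1, 3 and 4 were above all 10 libraries of the other groups while MRL replicate 2 lay among them. The log2 fold change of 0.78 (SE 0.50, adjusted p by edgeR = 0.510, exact permutation p = 0.200) was 0.41 without both libraries that stand apart.

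Tlr13 (ENSMUSG00000033777.4, chrX:106143204-106160493, plus strand), which recognizes a bacterial ribosomal RNA and has no human counterpart, was measured at 429 to 1558 counts. Tlr13 stood at 3.35, 1.69, 2.02 and 2.97 CPM in MRL replicates 1 to 4, and in MRL-IRAK4-KD replicates 1 to 4 at 2.02, 1.89, 1.84 and 1.68 CPM. In C57BL/6 libraries it stood at 2.41, 1.49 and 1.40 CPM and in IRAK4-KD libraries at 2.05, 1.85 and 1.88 CPM. MRL replicates 1 and 4 exceeded all others, whereas MRL replicate 2 lay below 3 of the 4 MRL-IRAK4-KD libraries. The log2 fold change was 0.43 (SE 0.23, adjusted p by edgeR = 0.448, exact permutation p = 0.200).

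Tlr8 (ENSMUSG00000040522.5, chrX:167242696-167264329, minus strand), the neighbour of Tlr7 on the X chromosome and its close relative, was at the edge of detection. It had 47, 45, 52 and 110 counts in MRL replicates 1 to 4, 43, 14, 16 and 0 in MRL-IRAK4-KD, 54, 16 and 10 in C57BL/6 and 10, 30 and 20 in IRAK4-KD replicates. A count of 0 does not show that the transcript was absent. Since a count cannot be taken as a single read, these counts give no upper bound for it. In CPM, MRL libraries had 0.101, 0.0788, 0.110 and 0.230 and MRL-IRAK4-KD libraries 0.0887, 0.0393, 0.0368 and 0, and MRL replicate 4 alone was above all libraries of the other groups. The log2 fold change, the highest of the members, was 1.63 with a standard error of 0.84 (edgeR adjusted p = 0.446, exact permutation p = 0.0571), and without both libraries that stand apart it was 1.22.

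At the cell surface, Tlr2 (ENSMUSG00000027995.10, chr3:83836272-83841767, minus strand) is the shared partner of the lipopeptide receptors. In MRL replicates 1 to 4, Tlr2 stood at 2.14, 1.07, 1.40 and 2.03 CPM, and in MRL-IRAK4-KD replicates 1 to 4 at 1.13, 1.12, 1.08 and 1.31 CPM. The C57BL/6 libraries had 1.23, 1.11 and 0.762 CPM and the IRAK4-KD libraries 0.721, 1.15 and 0.746 CPM of Tlr2. MRL replicates 1, 3 and 4 were above all 10 libraries of the other groups, and MRL replicate 2 was below every MRL-IRAK4-KD library. For MRL and MRL-IRAK4-KD the means were 1.66 ± 0.511 CPM (SD, n = 4) and 1.16 ± 0.101 CPM (n = 4), with a log2 fold change of 0.52 (SE 0.25, adjusted p by edgeR = 0.440, exact permutation p = 0.143).

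Its partners Tlr1 and Tlr6 were lower in level and alike in pattern. Tlr6 stood at 1.09, 0.714, 0.623 and 0.924 CPM in MRL replicates 1 to 4, and in MRL-IRAK4-KD replicates 1 to 4 at 0.479, 0.573, 0.749 and 0.506 CPM. Values of Tlr6 in C57BL/6 libraries were 0.623, 0.744 and 0.570 CPM, and those in IRAK4-KD libraries were 0.590, 0.691 and 0.562 CPM. MRL replicates 1 and 4 were again the highest, and the other MRL libraries lay within the range of the MRL-IRAK4-KD libraries. With a log2 fold change of 0.54 (SE 0.23), Tlr6 was the member at an unadjusted p below 0.05 (edgeR p = 0.0329, adjusted p = 0.437, exact permutation p = 0.0857). It was no longer below that threshold without MRL replicate 1 (log2 fold change 0.38, SE 0.23), MRL replicate 4 (0.51, SE 0.25), MRL-IRAK4-KD replicate 1 (0.46, SE 0.25) or MRL-IRAK4-KD replicate 2 (0.55, SE 0.26), nor without both libraries that stand apart (0.48, SE 0.23). In MRL replicates 1 to 4, Tlr1 stood at 1.06, 0.704, 0.750 and 1.17 CPM, and in MRL-IRAK4-KD replicates 1 to 4 at 0.631, 0.780, 0.802 and 0.541 CPM. In C57BL/6 libraries it stood at 0.780, 0.550 and 0.583 CPM and in IRAK4-KD libraries at 0.845, 0.831 and 0.560 CPM. The MRL group thus split into replicates 1 and 4 above all other libraries and replicates 2 and 3 inside the range of the rest, and the log2 fold change of Tlr1 was 0.42 (SE 0.24, adjusted p by edgeR = 0.468, exact permutation p = 0.171).

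Tlr4 (ENSMUSG00000039005.13, chr4:66827584-66930284, plus strand), the lipopolysaccharide receptor, stood in MRL replicates 1 to 4 at 1.44, 1.21, 1.43 and 2.07 CPM and in MRL-IRAK4-KD replicates 1 to 4 at 0.984, 1.63, 1.10 and 0.615 CPM. The C57BL/6 libraries had 1.58, 1.45 and 0.978 CPM and the IRAK4-KD libraries 0.932, 1.29 and 1.01 CPM of Tlr4. Only MRL replicate 4 was above the highest MRL-IRAK4-KD library, and C57BL/6 libraries reached the MRL range. Its log2 fold change was 0.50 (SE 0.28, adjusted p by edgeR = 0.459, exact permutation p = 0.171). It was 0.31 without both libraries that stand apart and 0.78 (SE 0.27) without MRL-IRAK4-KD replicate 2, where it was below an unadjusted 0.05. Tlr5 (ENSMUSG00000079164.8, chr1:182954788-182976044, plus strand), the flagellin receptor, was the member whose highest library was not an MRL library. It stood at 0.355, 0.298, 0.258 and 0.326 CPM in MRL replicates 1 to 4 and at 0.279, 0.258, 0.381 and 0.0419 CPM in MRL-IRAK4-KD replicates 1 to 4. Values of Tlr5 in C57BL/6 libraries were 0.644, 0.466 and 0.226 CPM, the first being the highest of all,, and those in IRAK4-KD libraries were 0.287, 0.450 and 0.344 CPM. No MRL library exceeded the highest MRL-IRAK4-KD library, the lowest of which rested on 13 counts. The log2 fold change of Tlr5 was 0.36 (SE 0.49, adjusted p by edgeR = 0.781, exact permutation p = 0.514) and 0.01 without both libraries that stand apart, a setting under which the fold changes of the other 9 members stayed above 0 and the median of the 10 was 0.35.

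**Figure D2:**
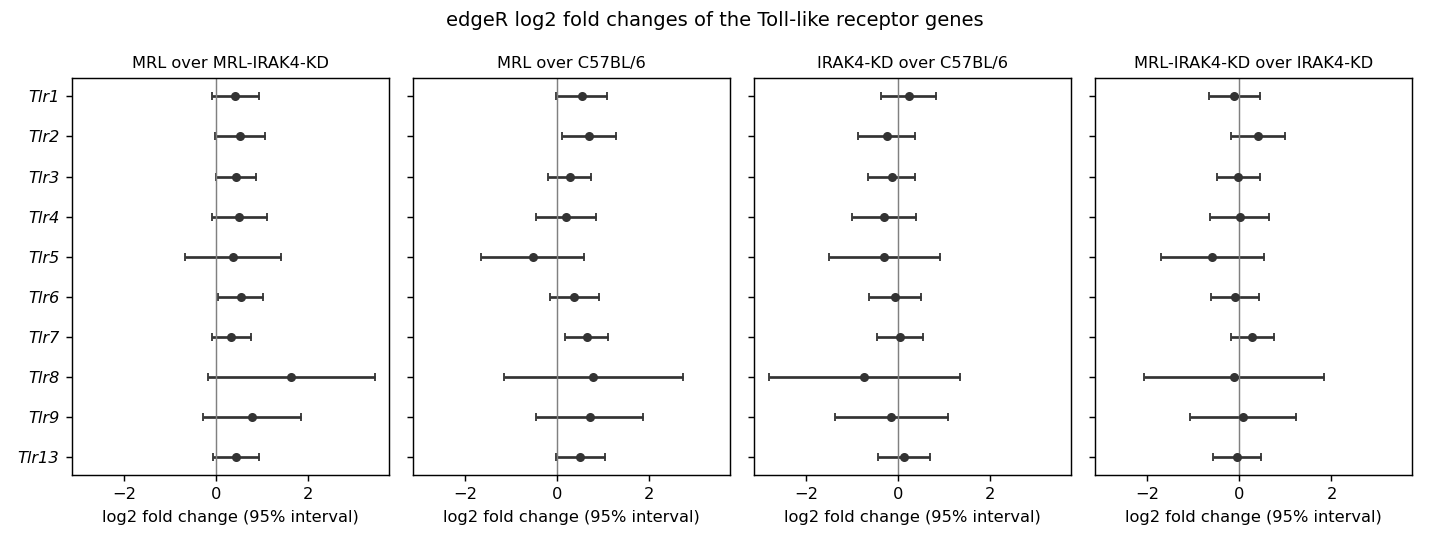
edgeR log2 fold changes (x axis, points) with 95% intervals (bars) of the 10 TLR genes (y axis) in 4 comparisons (panels). All points of MRL over MRL-IRAK4-KD lie right of 0, while the comparisons of IRAK4-KD with C57BL/6 and of MRL-IRAK4-KD with IRAK4-KD scatter around 0.

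The lupus-prone mice were next set against mice with neither mutation. Between MRL and C57BL/6 libraries, 9 of 10 members were higher and Tlr5 lower in MRL, with a median log2 fold change of 0.52 (all genes -0.0046). At an unadjusted p below 0.05, edgeR called 2 of 10, Tlr2 and Tlr7, both higher in MRL, against 5.55% of all genes in either direction and 3.16% higher, and DESeq2 called 4 (5.96% of all genes) and limma-voom 5 (12.1%). After adjustment 0 of 10 were called with each tool, and edgeR called 0 of all 38070 genes in this comparison. Tlr7 had 2.37 ± 0.506 CPM (SD, n = 3) in C57BL/6 libraries, and its log2 fold change was 0.64 (95% interval 0.17 to 1.11, edgeR adjusted p = 0.778). Tlr2 had 1.03 ± 0.243 CPM (SD, n = 3) there, with a log2 fold change of 0.68 (95% interval 0.10 to 1.27, edgeR adjusted p = 0.887). Tlr7 stayed at an unadjusted p below 0.05 with each library left out in turn, and Tlr2 did not without MRL replicate 1 (log2 fold change 0.55, SE 0.28), MRL replicate 4 (0.59, SE 0.29) or C57BL/6 replicate 3 (0.51, SE 0.30). For 0 of 10 members was every MRL library above every C57BL/6 library, against 4.47% of all genes. Leaving out MRL-IRAK4-KD replicate 4, which takes no side in this comparison but enters the shared estimate of the spread, raised the number of members at an unadjusted p below 0.05 from 2 to 6, and the share of all genes from 5.55% to 10.1%.

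Between the groups labelled IRAK4-KD and C57BL/6 no TLR difference passed the test, and the library labelled IRAK4-KD replicate 3, with the Fas transcripts of the lpr groups, is part of this comparison. Between IRAK4-KD and C57BL/6 libraries 3 members were higher and 7 lower in IRAK4-KD, with log2 fold changes from -0.74 (Tlr8) to 0.22 (Tlr1) and a median of -0.15. At an unadjusted p below 0.05, edgeR, DESeq2 and limma-voom each called 0 of 10, against 3.8%, 4.17% and 9.17% of all genes, and after adjustment again 0 of 10 (0.147% of all genes with edgeR). The 95% interval was -0.65 to 0.36 for Tlr3 and -0.46 to 0.53 for Tlr7. Without both libraries that stand apart 2 members were higher and 8 lower, with a median of -0.16, and the value of Tlr1 moved from 0.22 to 0.40 and that of Tlr7 from 0.04 to -0.018. Between MRL-IRAK4-KD and IRAK4-KD libraries, which by their labels differ in lpr on the kinase-dead background, 4 members were higher and 6 lower, their median log2 fold change was -0.04, and edgeR, DESeq2 and limma-voom each called 0 of 10 at an unadjusted p below 0.05 (8.63%, 9.67% and 12.5% of all genes) and 0 after adjustment (0.0735% with edgeR). Without both libraries that stand apart the count turned to 6 higher and 4 lower, with a median of 0.15. With all libraries Tlr2 had the highest value, 0.41 (95% interval -0.17 to 0.99, edgeR adjusted p = 0.591), and Tlr5 the lowest, -0.58 (95% interval -1.70 to 0.54, edgeR adjusted p = 0.697). Without those libraries Tlr9 was highest (0.51, SE 0.33), Tlr2 was at 0.25 and Tlr5 at -0.27.

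Whether the difference with the mutation depended on the lpr background was tested as an interaction, the log2 fold change of MRL over MRL-IRAK4-KD minus that of C57BL/6 over IRAK4-KD, with backgrounds taken from the labels. It was above 0 for all 10 members, from 0.06 (Tlr5) to 0.89 (Tlr8), with a median of 0.42 (all genes -0.0038). The value of Tlr5 turned to -0.26 without both libraries that stand apart and to -0.084 with limma-voom. With edgeR, DESeq2 and limma-voom, 0 of 10 members were at an unadjusted p below 0.05 (4.17%, 3.87% and 7.89% of all genes) and 0 after adjustment (0.00263% with edgeR). Tlr1 had the smallest p, with 0.64 (95% interval -0.14 to 1.43, edgeR adjusted p = 0.914), and without the library labelled IRAK4-KD replicate 3 its unadjusted edgeR p was 0.0496. These 5 comparisons share libraries, and the signs in one are not independent of those in another.

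Across libraries the members varied together. Of the 45 pairs of members, 44 had a positive Pearson r of log2(CPM + 0.1) over the 14 libraries, with a median of 0.63, and the exception was Tlr5 with Tlr7 (r = -0.02). Tlr3 and Tlr9 were closest to each other, with r = 0.98 over 14 libraries and 0.93 over 13 without MRL-IRAK4-KD replicate 4. MRL replicate 1 was the highest library for 5 members, MRL replicate 4 for 4 and C57BL/6 replicate 1 for 1, Tlr5. MRL-IRAK4-KD replicate 4 was the lowest for 6 members, Tlr1, Tlr3, Tlr4, Tlr5, Tlr8 and Tlr9. Libraries share their depth and composition, so that these values describe this set of libraries and carry no p.

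**Figure D3:**
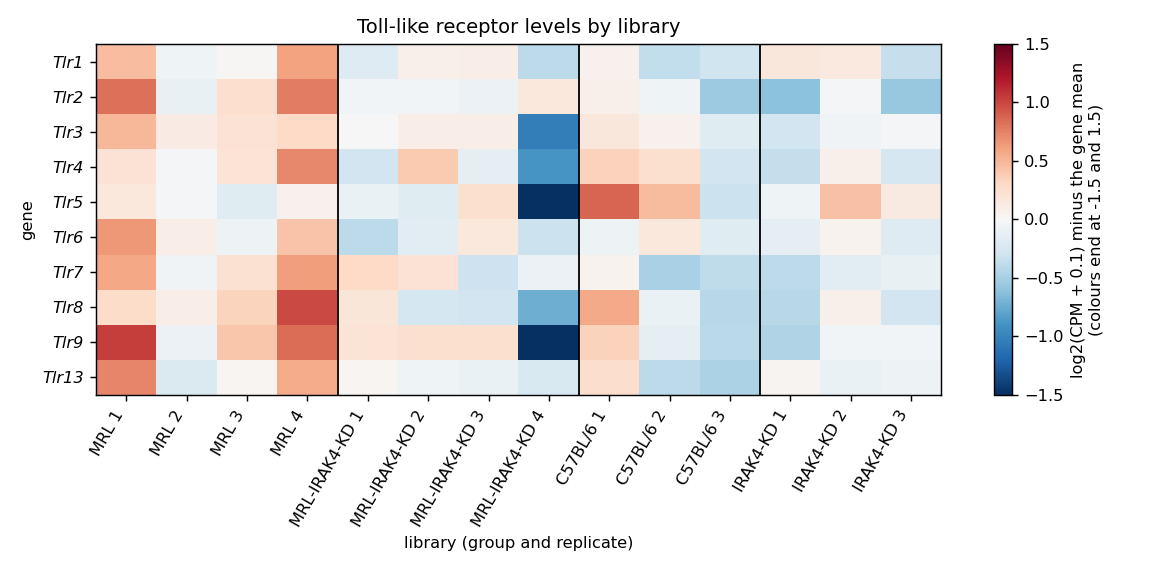
Level of the 10 TLR genes (rows) in the 14 libraries (columns), as log2(CPM + 0.1) minus the mean of the gene, with red above and blue below the mean, colours ending at -1.5 and 1.5 and vertical lines between groups. MRL replicates 1 and 4 are red for all or nearly all genes, MRL replicates 2 and 3 are pale, and MRL-IRAK4-KD replicate 4 is deep blue for Tlr3, Tlr4, Tlr5 and Tlr9.

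Markers of microglia, border macrophages and astrocytes were read beside the members. The 15 microglial markers summed to 548 to 694 CPM in MRL, 510 to 669 in MRL-IRAK4-KD, 467 to 493 in C57BL/6 and 432 to 491 in IRAK4-KD libraries, and none of them was at 0. Of the 15, 11 were higher in MRL than in MRL-IRAK4-KD libraries. With edgeR, 3 were at an unadjusted p below 0.05, all higher in MRL (11.4% of all genes in either direction, 5.14% higher). After adjustment 0 were called (0.0972% of all genes). On the log2 scale the microglial sum was 0.14 higher in MRL than in MRL-IRAK4-KD libraries and 0.35 higher than in C57BL/6 libraries. Subtracting it from each TLR, the median member was 0.31 higher in MRL than in MRL-IRAK4-KD libraries and 0.08 higher than in C57BL/6 libraries. Without MRL-IRAK4-KD replicate 4, whose microglial sum of 669 CPM was the second highest while most TLR values were the lowest, the difference to MRL-IRAK4-KD was 0.23 for the microglial sum and 0.08 for the median member after subtraction. Tlr2 followed the microglial sum most closely, with r = 0.82 over 14 libraries and 0.88 over 13 without that library. Tlr3 and Tlr9 had r = 0.83 and 0.82 over the 13 libraries but r of -0.0007 and 0.0022 over all 14, and Tlr5 had r = -0.11 over the 13. The 8 markers of border macrophages summed to 23.0 to 37.6 CPM in MRL and 20.4 to 29.9 CPM in MRL-IRAK4-KD libraries. The 8 astrocyte markers summed to 4636 to 5419 CPM in MRL and 3692 to 4809 CPM in MRL-IRAK4-KD libraries. Their sums were 4387 to 5113 CPM in C57BL/6 and 4316 to 4770 CPM in IRAK4-KD libraries. MRL replicates 1 and 4 had the highest astrocyte sums, 5419 and 5412 CPM, and MRL-IRAK4-KD replicate 4 the lowest, 3692 CPM. Slc1a2 alone reached 3145 CPM and weighs most in these sums. Between MRL and MRL-IRAK4-KD libraries 6 astrocyte markers were higher and 2 lower in MRL, Gfap (log2 fold change -0.35) and Sox9 (-0.47). With edgeR, Sox9 was the only 1 at an unadjusted p below 0.05 (11.4% of all genes), and after adjustment 0 were called. The part of these cell types in the TLR differences was not tested.

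Markers of vessels and blood were read in the same way. The 6 endothelial markers summed to 149 to 281 CPM in MRL, 97.3 to 129 in MRL-IRAK4-KD, 94.7 to 111 in C57BL/6 and 66.7 to 77.4 in IRAK4-KD libraries, so that MRL libraries were above all others. All 6 were higher in MRL than in MRL-IRAK4-KD libraries. With edgeR, 4 were at an unadjusted p below 0.05 (11.4% of all genes in either direction, 5.14% higher). Of the 6, 1 passed the adjusted threshold (0.0972% of all genes), Slco1a4 (edgeR adjusted p = 0.0434). The 9 markers of monocytes and neutrophils summed to 8.29, 31.7, 2.64 and 24.2 CPM in MRL replicates 1 to 4 and to at most 6.09 CPM elsewhere, and the 5 blood markers to 369, 131, 83.9 and 356 CPM in MRL replicates 1 to 4 and to at most 193 CPM elsewhere. MRL replicates 1 and 4, the highest for 9 of the 10 TLR genes, also had the highest sums of the blood markers, and MRL replicate 2, with the highest myeloid sum, was the highest library for no member. The 11 markers of B, T and plasmacytoid dendritic cells summed to 2.78 to 6.32 CPM in MRL and 2.36 to 5.85 CPM in MRL-IRAK4-KD libraries. Their part in the TLR differences was not tested.

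**Figure D4:**
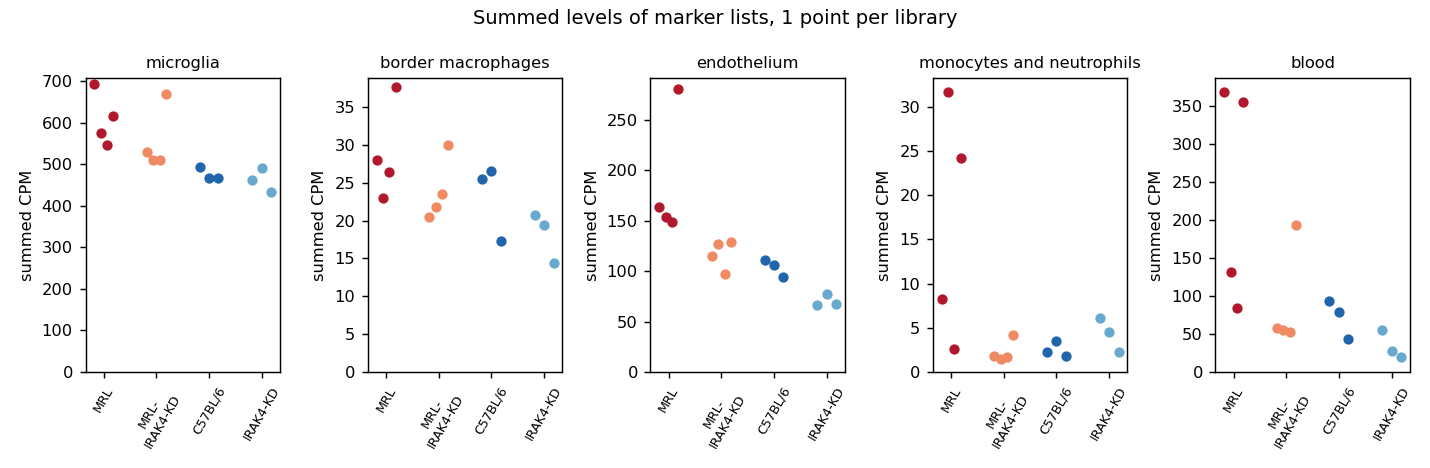
Summed CPM (y axis, each panel starting at 0) of 5 marker lists (panels) in the 4 groups (x axis), 1 point per library. All MRL points lie above those of the other groups for the endothelium, while for microglia MRL-IRAK4-KD replicate 4 reaches the MRL range.

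The genes whose pattern over the libraries was most like that of a TLR were named by the 3 highest Pearson r of log2(CPM + 0.1) among 16104 genes with a mean of at least 1 CPM, for the 8 members with a mean of at least 0.5 CPM. Those of Tlr6 were the costimulatory gene Cd86 (0.88), AU020206 (0.84) and Tgfbi (0.81), and without MRL-IRAK4-KD replicate 4 they were Lcp1 (0.90), Olfml3 (0.89) and Cd86 (0.87). Tlr7 was most like Tent5c (0.92), Trim34a (0.91) and Acot11 (0.89), and, without that library, Ikzf1, a transcription factor of blood lineages (0.95). Tlr13 was most like Pgm5 (0.90), the ectonucleotidase gene Entpd1 (0.90) and Tent5c (0.87), and Tlr2 like Tent5c (0.89), Mecom (0.88) and Decr1 (0.88). For Tlr2 without that library Tmem123 (0.94), Tgfbr2 (0.93) and the macrophage gene Adgre1 (0.93) came first, and for Tlr13 Numa1 (0.93). Tlr4 was most like Scd1 (0.93), Itih5 (0.92) and Tgfbr2 (0.91), and without that library like Rap1gap2 (0.89). Tlr3 was most like Kif13a (0.98), Fzd6 (0.98) and Syne2 (0.98), and Tlr9 like Tmem123, Tlr3 and Zfp526 (each 0.98). Without MRL-IRAK4-KD replicate 4, Kif13a still came first for Tlr3 (0.95), whereas Tlr9 was most like Map1a and Il6st (each 0.94).

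The TLR loci outside the 10 members were read in the same way. Tlr12, which like Tlr11 recognizes a profilin of protozoan parasites, stood in MRL replicates 1 to 4 at 0.808, 0.697, 0.534 and 0.957 CPM and in MRL-IRAK4-KD replicates 1 to 4 at 0.506, 0.399, 0.581 and 0.383 CPM. In C57BL/6 libraries it stood at 0.482, 0.369 and 0.501 CPM and in IRAK4-KD libraries at 0.441, 0.543 and 0.400 CPM. Every MRL library was above every C57BL/6 library, as for 4.47% of all genes, and 3 were above all MRL-IRAK4-KD libraries. The log2 fold change of MRL over MRL-IRAK4-KD was 0.68 (SE 0.24, edgeR p = 0.0128, adjusted p = 0.432, exact permutation p = 0.0571). Tlr11 had 0 to 40 counts per library, with its highest in MRL replicate 4, and its log2 fold change of 1.51 had a standard error of 1.71 (edgeR adjusted p = 0.727).

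The proteins that load and deliver TLR ligands were taken from a list of 24 genes. Between MRL and MRL-IRAK4-KD libraries 11 were higher and 13 lower in MRL, with a median log2 fold change of -0.03. At an unadjusted p below 0.05, edgeR called 2 of the 24, both higher, against 11.4% of all genes in either direction and 5.14% higher. After adjustment it called 0. Cd14, the coreceptor that hands lipopolysaccharide to TLR4, stood at 3.18, 1.91, 2.37 and 3.97 CPM in MRL and 1.42, 1.48, 1.66 and 2.42 CPM in MRL-IRAK4-KD libraries. MRL replicates 2 and 3 were below MRL-IRAK4-KD replicate 4 and above the other 3 libraries of that group, and the log2 fold change was 0.71 (edgeR adjusted p = 0.415). Unc93b1, the chaperone that carries the nucleic acid sensors to endosomes, stood at 13.4, 12.4, 12.5 and 13.9 CPM in MRL and 11.8, 10.9, 10.9 and 11.03 CPM in MRL-IRAK4-KD libraries. The C57BL/6 libraries had 10.6, 10.1 and 10.6 CPM and the IRAK4-KD libraries 9.42, 9.11 and 7.42 CPM of Unc93b1. The MRL libraries were above all others and the IRAK4-KD libraries below all others. Of all genes, 3.13% had every MRL library above every MRL-IRAK4-KD library. Log2 fold changes of Unc93b1 were 0.23 for MRL over MRL-IRAK4-KD (edgeR adjusted p = 0.439) and -0.27 for IRAK4-KD over C57BL/6 (edgeR adjusted p = 1). Ly96, which encodes MD-2, had a log2 fold change of -0.12 (edgeR adjusted p = 0.853) and Ly86, a partner of a TLR4 relative, of 0.27 (adjusted p = 0.446). Dnase2a, a lysosomal nuclease, had -0.70 (edgeR adjusted p = 0.446), which came with 26.6 CPM in MRL-IRAK4-KD replicate 4 and at most 9.47 CPM elsewhere.

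Of 30 adaptors, kinases and transcription factors of the pathway, 23 were higher and 7 lower in MRL than in MRL-IRAK4-KD libraries, with a median log2 fold change of 0.16. At an unadjusted p below 0.05 there were 3 of the 30 with edgeR, all higher in MRL, and 0 after adjustment. The unadjusted share of all genes was 11.4% in either direction and 5.14% higher in MRL. Irf7, the factor through which TLR7 and TLR9 induce interferon, stood at 2.73, 3.23, 2.99 and 6.02 CPM in MRL and 1.64, 1.99, 1.41 and 2.11 CPM in MRL-IRAK4-KD libraries. Values of Irf7 in C57BL/6 libraries were 1.40, 1.13 and 1.18 CPM, and those in IRAK4-KD libraries were 0.865, 0.963 and 0.775 CPM. All MRL libraries were above all MRL-IRAK4-KD libraries, as for 3.13% of all genes. The MRL-IRAK4-KD libraries were above all C57BL/6 libraries, and IRAK4-KD libraries were the lowest. The log2 fold change of Irf7 was 1.07 for MRL over MRL-IRAK4-KD (SE 0.24, adjusted p by edgeR = 0.246). Pik3ap1, an adaptor between TLRs and PI3K, and Ticam2, the sorting adaptor of TLR4, had log2 fold changes of 0.51 and 0.50 (edgeR adjusted p = 0.416 and 0.439), and Tab1, a subunit of the TAK1 complex, of -0.20 (edgeR adjusted p = 0.446). Myd88 had a log2 fold change of 0.03 (edgeR adjusted p = 0.935), and Irak4, whose mutation counts do not show, of 0.25 (edgeR adjusted p = 0.527).

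Of 16 inhibitors of TLR signalling, 12 were higher and 4 lower in MRL than in MRL-IRAK4-KD libraries, and the median log2 fold change was 0.31. There were 5 of the 16 at an unadjusted p below 0.05 with edgeR (11.4% of all genes), 4 of them higher in MRL (5.14%). Tnip1, which binds ubiquitin chains and restrains NF-kappa-B, was the single gene of the pathway lists that passed the adjusted threshold. It stood at 17.9, 18.5, 17.6 and 18.6 CPM in MRL and 24.7, 31.2, 30.9 and 27.4 CPM in MRL-IRAK4-KD libraries, 17.2, 20.1 and 19.6 CPM in C57BL/6 and 30.8, 30.4 and 29.4 CPM in IRAK4-KD libraries. All libraries labelled with the kinase-dead IRAK4 were above all libraries without it, in both backgrounds as labelled. The mutation and any other difference between these mouse lines cannot be told apart here. The log2 fold change of Tnip1 was -0.65 for MRL over MRL-IRAK4-KD (SE 0.09, adjusted p by edgeR = 0.00934) and 0.67 for IRAK4-KD over C57BL/6 (SE 0.11, adjusted p by edgeR = 0.0184). Inpp5d (SHIP1) and Ptpn6 (SHP-1), phosphatases of blood cells and microglia, had log2 fold changes of 0.48 and 0.42 for MRL over MRL-IRAK4-KD (edgeR adjusted p = 0.403 and 0.437). Nlrc5 had 1.34 (edgeR adjusted p = 0.401), with 6.01 CPM in MRL replicate 4 and at most 1.71 CPM elsewhere.

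Genes that TLR signalling is known to induce were read last, from a list of 25 of which 24 could be tested. Between MRL and MRL-IRAK4-KD libraries 19 were higher and 5 lower in MRL, and the median log2 fold change was 0.47. With edgeR, 7 were at an unadjusted p below 0.05, all higher in MRL, against 11.4% of all genes in either direction and 5.14% higher. After adjustment 0 were called. The chemokine genes Cxcl10 and Ccl2 had log2 fold changes of 1.78 and 1.48 (edgeR adjusted p = 0.321 and 0.343), and the adhesion gene Icam1 of 0.86 (edgeR adjusted p = 0.402). Cxcl10 stood at 1.16, 0.593, 0.948 and 1.95 CPM in MRL and 0.281, 0.284, 0.581 and 0.203 CPM in MRL-IRAK4-KD libraries, but C57BL/6 replicate 1 also had 1.04 CPM. Lcn2, an acute-phase gene, had a log2 fold change of 3.38 (edgeR adjusted p = 0.401), with 15.1 CPM in MRL replicate 4 and at most 2.94 CPM elsewhere. Between IRAK4-KD and C57BL/6 libraries 9 of these genes were higher and 14 lower. With edgeR, 1 was at an unadjusted p below 0.05 (lower), against 3.8% of all genes in either direction. After adjustment 0 were called (0.147% of all genes).

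Counts per annotated transcript were read for isoforms. Tlr2, Tlr9 and Tlr13 had 1 transcript with at least 99.6% of their counts in every library, and Tlr4-201 held at least 97.6% of Tlr4. Tlr3-201 held 82.7% to 98.1% of the Tlr3 counts in 12 libraries. Tlr3-205, which starts at another first exon and has the same coding length of 2715 bases, held 63.1% in MRL replicate 4, 33.9% in IRAK4-KD replicate 1, 15.7% in C57BL/6 replicate 2 and at most 0.4% elsewhere. The 3 coding transcripts of Tlr7, each with a coding length of 3150 bases, took between 0% and 77.6% (Tlr7-201), 0% and 100% (Tlr7-202) and 0% and 98.3% (Tlr7-203) of the Tlr7 counts. Libraries of 1 group disagreed with each other in these shares, as MRL-IRAK4-KD replicates 2 and 3 did with 77.2% and 0% of Tlr7-201. For Tlr5, Tlr5-201 held 84.3% to 90.6% in C57BL/6 replicate 1 and in IRAK4-KD replicates 2 and 3, and at most 2.17% in all other libraries.

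**Figure D5:**
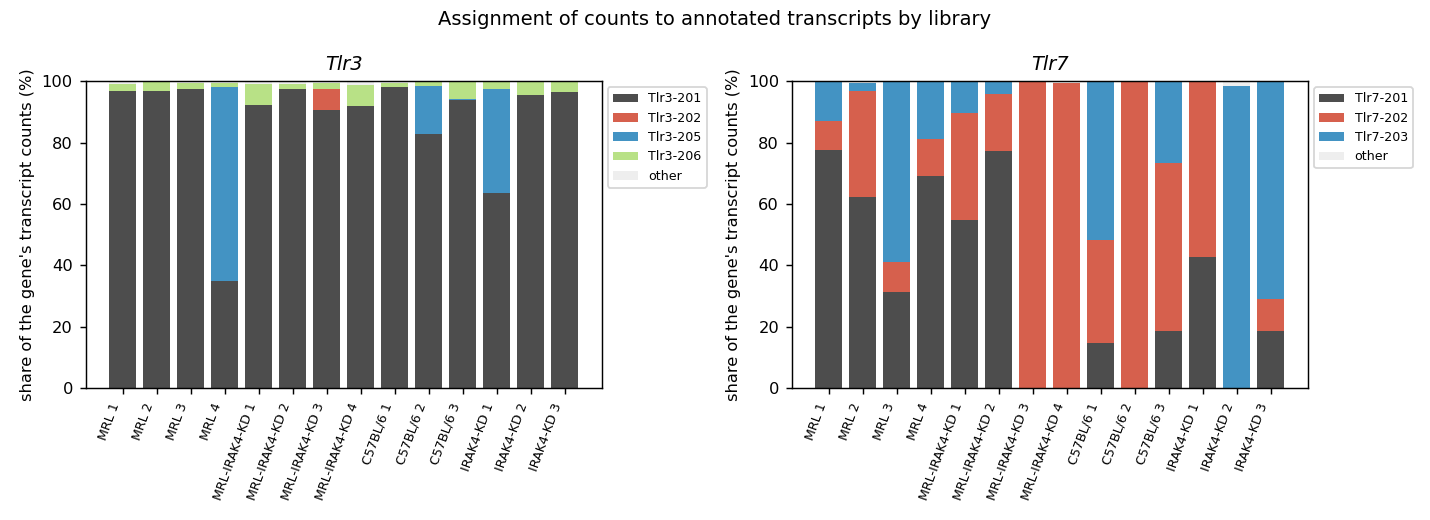
Share of the counts of Tlr3 (left) and Tlr7 (right) assigned to each annotated transcript (y axis, percent), in the 14 libraries (x axis). Transcripts below 5% in every library are joined as other. Tlr3-205 appears mainly in MRL replicate 4, IRAK4-KD replicate 1 and C57BL/6 replicate 2, and the shares of Tlr7 differ between libraries of the same group.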

How the data were processed

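Hippocampal poly(A) RNA of 14 mice was sequenced (4 MRL, 4 MRL-IRAK4-KD, 3 C57BL/6, 3 IRAK4-KD). The kit differs between the sources: the study's methods name SMART-Seq and Nextera XT, the labels KAPA HyperPrep. The authors deposited unnormalized counts per gene and per transcript. The submitters' processing notes name HISAT2 2.1.0, SAMtools 1.9, StringTie 2.1.0, R 4.0.5, DESeq2 1.30.1 and mm10. Strand use in counting is not given in the sources used here. Of 81881 rows, the 26345 without an Ensembl identifier, spike-ins included (0.0254% to 0.188% of counts), were left out.

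The 38070 genes whose counts summed to 10 or more were tested with edgeR 4.0.16 (TMM, quasi-likelihood, 1 fit over 4 groups, R 4.3.3) and Benjamini-Hochberg adjustment over all genes, with a threshold of 0.05. limma 3.58.1 (voom with quality weights), DESeq2 1.42.0, other scalings and filters, transcript counts, halved counts, the compared libraries alone, a replicate block and leaving out each library were alternatives. Leaving out both libraries that stand apart was chosen after seeing the data. For each member an exact permutation test (2-sided, on log2(CPM + 0.1)) was added. Only the edgeR fit of MRL over MRL-IRAK4-KD was tested on simulated counts, with changes placed in genes above a mean of 1 CPM. The other comparisons and tools were not tested in this way. P-values measure the spread between these libraries.

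The members and lists were chosen with earlier results of these data known. The genes named are all members and, of each pathway list, those past the adjusted threshold in any of the 5 comparisons and the 4 with the smallest p for MRL over MRL-IRAK4-KD, together with Myd88, Irak4, Unc93b1 and Ly96. Level per kilobase used the summed exon length of GENCODE M21. The genes most like Tlr1 in pattern are not reported here.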

Additional observations from a re-analysis of the deposited data

Results flagged for a closer look

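In MRL-IRAK4-KD replicate 4, Tlr3 stood at 6.80 CPM and Tlr9 at 0.106 CPM, each far below the other 3 libraries of the group. The gap to the nearest of the others was 0.881 of the group's range for Tlr3 and 0.970 for Tlr9, above Dixon's 95% critical value for 4 libraries. Of 20 group tests made, chance gives about 1 such result. The same library had 7776 CPM of choroid plexus markers, mostly Ttr, and the lowest sum of neuronal markers, 7477 CPM, and their part in the low TLR values was not tested.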

How the results depend on the processing

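No member passed the adjusted threshold in any setting, with edgeR, DESeq2 or limma-voom. For MRL over MRL-IRAK4-KD all 10 log2 fold changes were above 0 in every setting except limma-voom, where 9 were, and their median lay between 0.31 and 0.60. The number of members at an unadjusted p below 0.05 moved more. It was 1 with edgeR, 4 with DESeq2, 2 with limma-voom, 0 with only the libraries compared and 2 with halved counts, and between 0 (without MRL replicate 1) and 4 (without MRL replicate 2) on leaving out 1 library. For MRL over C57BL/6 it was 2 with edgeR (5.55% of all genes), 4 with DESeq2 (5.96%) and 5 with limma-voom (12.1%). It was 4 with only the libraries compared, 1 with the replicate block and 5 without both libraries that stand apart. Leaving out 1 library gave 1 (without MRL replicate 1) at the lowest. The highest was 6 (without MRL-IRAK4-KD replicate 4, where 10.1% of all genes were called). The number of members ran from 0 to 1 for MRL-IRAK4-KD over IRAK4-KD and for the interaction. Since the share of all genes also moved with the setting, a change in these counts is not a result about the members. Where not set by the number of libraries, the cause was not tested.

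Some log2 fold changes turned in sign, among them Tlr8 (-0.74) and Tlr5 (-0.30) for IRAK4-KD over C57BL/6 and Tlr5 (0.36) for MRL over MRL-IRAK4-KD. For MRL-IRAK4-KD over IRAK4-KD, Tlr4 was -0.038 with library size only, Tlr3 0.15 and Tlr13 0.0071 with limma-voom, and Tlr3 0.23 and Tlr8 0.14 without both libraries that stand apart. Tlr5 was -0.064 for MRL over MRL-IRAK4-KD and -0.084 for the interaction with limma-voom, and its interaction was -0.26 without both libraries, where Tlr7 was -0.018 for IRAK4-KD over C57BL/6. On leaving out 1 library, IRAK4-KD over C57BL/6 ran from -0.62 to 0.058 for Tlr5, -0.16 to 0.049 for Tlr6, -0.065 to 0.22 for Tlr7, -1.29 to 0.18 for Tlr8, -0.32 to 0.12 for Tlr9 and -0.015 to 0.41 for Tlr13. MRL-IRAK4-KD over IRAK4-KD ran from -0.11 to 0.19 for Tlr3, -0.26 to 0.20 for Tlr4, -0.81 to 0.45 for Tlr8 and -0.076 to 0.44 for Tlr9, and the interaction of Tlr5 from -0.28 to 0.42.

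The replicate numbers did not pair the libraries: over 19 pairs the correlation of deviations from the group means ranged from -0.21 to 0.36, with 5 over 0.1, and 4 of 14 libraries correlated best with their own number. With the replicate block, 1 member was at an unadjusted p below 0.05 for MRL over MRL-IRAK4-KD, which was Tlr3 (0.49) in place of Tlr6 (0.53), the median was 0.51, and Tlr3 was 0.055 for MRL-IRAK4-KD over IRAK4-KD. Counts were lowest for Tlr8 (0 to 110 per library) and Tlr5 (13 to 238), whose values depth limits most.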
